A study of Mus musculus with 21 samples.

Results

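Retinoid handling and receptor genes are the 9 genes Crabp1, Crabp2, Stra6, Lrat, Rdh10, Dhrs9, Rara, Rarg and Rxra, picked by gene symbol from the 22050 entries of an expression table of mouse keratinocytes. Expression was profiled in keratinocytes carrying a doxycycline-activated human p16 transgene. The p16 samples are GFP+ cells of back skin from male mice of genotype K5-rtTA/tet-GFP/tet-p16, and the control samples are the same cells from K5-rtTA/tet-GFP males, which express GFP alone; both received doxycycline for 6 months, begun at 3 weeks of age. Mice of both groups had a mixed FVB, C57Bl and 129sv background, and each group had 4 samples of about 80000 cells pooled from 3 mice. The keratin 5 promoter restricts both transgenes to basal epidermal and follicular keratinocytes and the cells derived from them, and cells bearing CD140a, CD45 or CD31 were gated out. A further 13 samples of a later profiling were not analysed here.

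Values are normalized reads, that is, reads on a gene divided by a size factor of the sample. Libraries held 1760953 to 3414362 reads on genes in control samples and 2884544 to 3202975 in p16 samples, so that 1 read was worth 0.742 to 1.53 normalized reads. Where the values of 4 samples are listed, they follow the order of replicates 1 to 4. The human CDKN2A transgene gave 0.7, 1.3, 2.5 and 1.5 normalized reads in control samples and 1.6, 10.1, 16 and 7.4 in p16 samples. On 2 reads, the library labelled p16 replicate 1 lay within the control range for this gene. The groups overlapped, and the transgene was not called in the limma test described below (adjusted p = 0.0952). GFP was read in all samples, at 4152 to 5912.6 in control and 3161.8 to 3978.8 in p16 samples. It was called lower in p16 samples (log2 change −0.58, limma adjusted p = 0.0167). Replicate 4 of the p16 group stood apart from the other p16 libraries: the chi-square per degree of freedom between pairs of libraries was 6.75 to 8.96 for pairs with it and 3.05 to 3.31 for the other p16 pairs. Krt5, which marks basal keratinocytes, was at 9045.9 to 17968.5 in control and 9476.9 to 10856.3 in p16 samples.

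Retinol enters cells, is stored as retinyl esters, and is oxidized through retinal to retinoic acid, which binding proteins carry to nuclear receptors or to the hydroxylases that inactivate it. Retinoic acid receptors pair with retinoid X receptors on DNA and switch target genes on or off according to whether ligand is bound. In skin, retinoids control keratinocyte differentiation, sebaceous glands and the hair cycle.

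All 9 genes had a mean of at least 1 normalized read and were tested, Lrat and Dhrs9 through their control samples alone. Crabp1, Crabp2 and Lrat were lower in p16 samples and Rara was higher, while the other genes did not pass the test. These 4 of 9 genes were called by limma at an adjusted p under 0.05, against 3.86% of the 12782 genes tested; 3 of 9 were lower, against 2.61%, and 1 of 9 was higher, against 1.24%. The same 4 genes had groups that did not overlap, as did 9.83% of all genes tested, and had an unadjusted p under 0.05, as did 15.9%. The RNA came from bulk cells, so fewer cells of a type and less RNA per cell cannot be told apart. Since each sample is a pool of mice, the p-values measure the spread between pools. Both groups drew on sibling mice with shared rearing and treatment, and the pools of a group came from fewer experiments than there were pools. Which pools share an experiment is not given in the sources used here. Whether the pools are independent, as the p-values assume, was therefore not tested.

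Crabp1 (chr9:54764748-54773110, plus strand of GRCm38) encodes a cytosolic protein that binds retinoic acid. It was at 13.4, 18.0, 12.5 and 13.8 normalized reads in control samples and at 3.2, 3.1, 2.7 and 0.8 in p16 samples. Every p16 sample lay below every control sample, and p16 replicate 4 was the lowest, on 1 read. The mean fell from 14.4 ± 2.44 to 2.45 ± 1.12 (SD, n = 4 each), a 5.89-fold difference, resting on 56 reads in control and 12 in p16 libraries. On the log2(value + 1) scale the change was −2.22 (SE 0.36, 95% interval −2.99 to −1.46, adjusted p = 0.00274). It ranked 63 of the 334 genes called lower, by size of change.

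Crabp2 (chr3:87948666-87953376, plus strand), which encodes the protein that delivers retinoic acid to its receptors in the nucleus, was more abundant. It was at 129.1, 88.6, 241.4 and 145.1 in control samples and at 64.0, 82.8, 81.6 and 66.6 in p16 samples. The groups did not overlap, but control replicate 2, at 88.6, lay close to the highest p16 sample, at 82.8, and control replicate 3 was far above the other controls. Means were 151 ± 64.8 and 73.8 ± 9.83 (SD, n = 4 each), a 2.05-fold difference. The log2 change was −0.94 (SE 0.23, 95% interval −1.43 to −0.45, adjusted p = 0.0346). The call was lost without control replicate 1 (adjusted p = 0.0739), 3 (0.0706) or 4 (0.0869), without p16 replicate 3 (0.0563), without the library labelled p16 replicate 1 (0.112), without replicate 3 of both groups (0.0992, log2 change −0.74), and with all samples scaled to equal totals (0.0536), in a range of 0.00227 to 0.112 over 17 settings.

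Stra6 (chr9:58063788-58153996, plus strand) encodes the membrane receptor through which cells take up retinol from its carrier in blood. It was at 31.9, 20.5, 23.4 and 64.2 in control samples and at 26.4, 43.7, 32.8 and 49.3 in p16 samples. The groups overlapped fully, with both the lowest and the highest sample among the controls. The log2 difference was 0.22 (95% interval −0.45 to 0.89, limma adjusted p = 0.808). With 1 sample left out it ranged from 0.02 (without control replicate 2) to 0.56 (without control replicate 4), and none of these fits called it. Ccdc33, on the opposite strand over part of the gene, was at 0 in all 8 samples.

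Lrat (chr3:82892579-82903973, minus strand) encodes the enzyme that esterifies retinol for storage. It was at 8.2, 2.6, 20 and 16.8 in control samples and at 0, 0.8, 0 and 0 in p16 samples. All controls lay above all p16 samples, although control replicate 2 held only 2 reads. There were 48 reads in control libraries and 1 in p16 libraries, a ratio of 57.8 relative to total reads on genes, with an exact 95% interval of 9.88 to 2328 that covers counting error only. The fitted log2 change, −3.19 (SE 0.54, adjusted p = 0.00413), depends on the added value of 1 at such low counts and ranged from −5.75 to −2.79 over 15 settings. It was not called when replicate 3 of both groups was left out (adjusted p = 0.0515, in a range of 0.000273 to 0.0515 over the same settings). Lrat lies within an antisense gene, Rbm46os, and reads from the opposite strand cannot be told apart because the use of strand in counting is not given in the sources used here.

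Rdh10 and Dhrs9 encode enzymes that oxidize retinol to retinal. Rdh10 (chr1:16105774-16133734, plus strand) was at 28.9, 33.4, 25.9 and 30.6 in control samples and at 30.4, 22.6, 23.9 and 28.8 in p16 samples. These groups overlapped, with a log2 difference of −0.17 (95% interval −0.58 to 0.25, limma adjusted p = 0.757). Dhrs9 (chr2:69380445-69404533, plus strand) was close to the limit of detection, with 8 reads in the control and 3 in the p16 libraries, a ratio of 3.21 with an exact 95% interval of 0.77 to 18.8 for counting error. It was at 0 in control replicate 4 and in p16 replicates 3 and 4, so no difference was detectable at this depth.

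Among the receptors, Rara (chr11:98927818-98974942, plus strand), the gene of retinoic acid receptor alpha, was at 136.5, 124.5, 108.6 and 136.0 in control samples and at 182.3, 162.4, 194.2 and 167.7 in p16 samples. All p16 samples exceeded all controls, and replicates within a group were close together. The mean rose from 126 ± 13.1 to 177 ± 14.4 (SD, n = 4 each), or 1.40-fold. The log2 change was 0.48 (SE 0.12, 95% interval 0.23 to 0.73, adjusted p = 0.0319), ranking 140 of the 159 genes called higher. The call was lost without control replicate 1 (adjusted p = 0.0574), 2 (0.0686) or 3 (0.0971), without p16 replicate 3 (0.107), without the library labelled p16 replicate 1 (0.108), and without replicate 3 of both groups (0.234), in a range of 0.0206 to 0.234 over 17 settings.

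Rarg (chr15:102234938-102257517, minus strand), the gene of retinoic acid receptor gamma, was at 950.3, 954.8, 790.9 and 907.5 in control samples and at 940.3, 811.2, 902.6 and 1069.7 in p16 samples. The groups overlapped, with a log2 difference of 0.04 (95% interval −0.18 to 0.27, limma adjusted p = 0.896) whose sign turned when control replicate 3 (−0.017) or p16 replicate 4 (−0.025) was left out. Rxra (chr2:27676440-27762957, plus strand), the gene of retinoid X receptor alpha, was at 462.2, 510.8, 547.1 and 557.6 in control samples and at 588.5, 541.1, 566.6 and 581.3 in p16 samples. Only p16 replicate 2 lay within the control range, and the log2 difference was 0.14 (95% interval −0.06 to 0.33, limma adjusted p = 0.520).

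**Figure D1:**
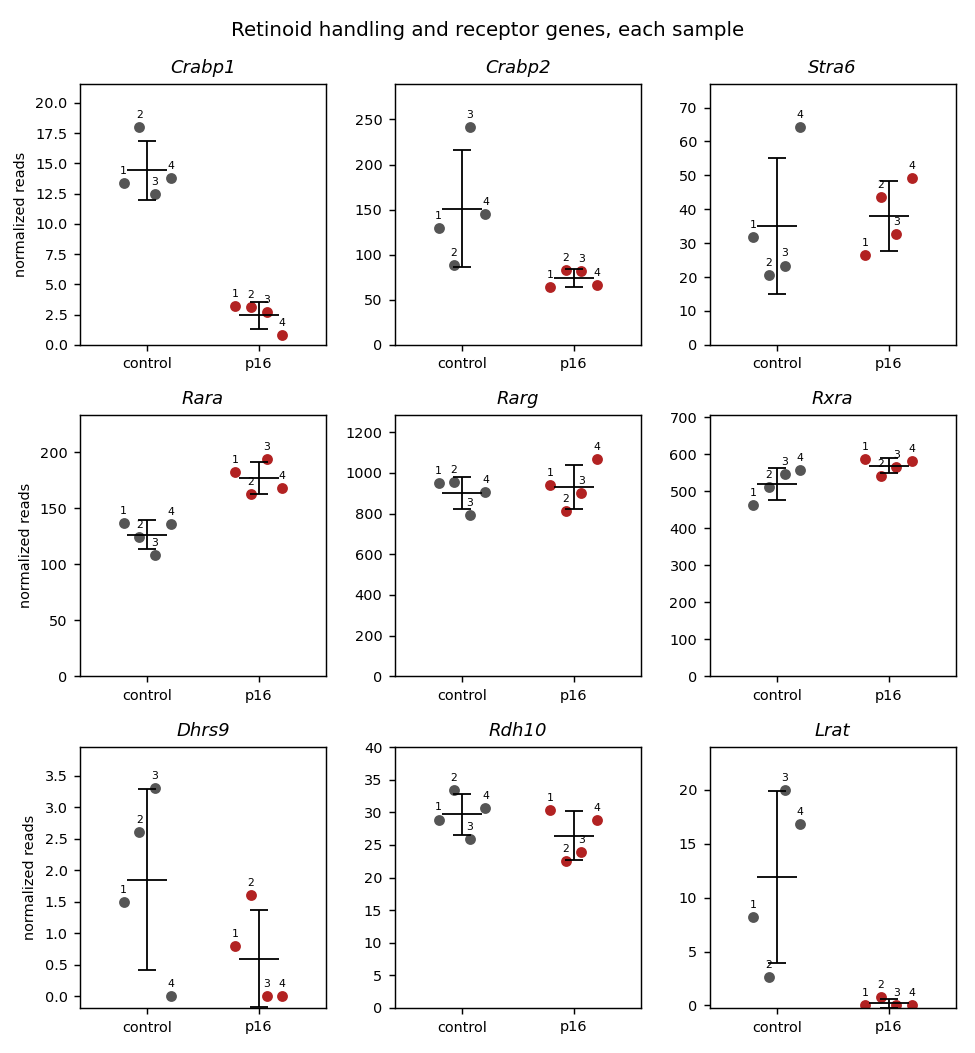
Normalized reads (vertical axes, linear) of the 9 retinoid handling and receptor genes in control (grey) and p16 (red) samples, with replicate numbers beside the points and bars for the mean ± SD of 4 samples. The groups are separate for Crabp1, Crabp2, Lrat and Rara, and overlap for the others.

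Of 65 genes of the retinoid pathway, the 9 included, 49 were tested, 2 were called higher and 9 lower, and 7 had no read in any sample. Without the 9, 40 pathway genes were tested, 1 was called higher and 6 lower. Of all genes tested, 1.24% were called higher and 2.61% lower. The median log2 change of the 49 was −0.15, and that of all genes tested was −0.0027. By role, 2 of 5 tested binding protein genes were lower (Crabp1 and Crabp2), as were 2 of 3 genes of retinyl ester formation (Lrat and Awat2), 1 of 15 retinol and retinal oxidoreductases (Adh1), 1 of 3 retinal dehydrogenases (Aldh1a2) and the 1 tested hydroxylase (Cyp26b1). Rara was the 1 gene called among 5 tested receptors. Of 2 tested uptake genes limma called 0, with 1 lower at an unadjusted p under 0.05 (Scarb1), and edgeR and DESeq2 called 0. The 1 tested gene of carotenoid cleavage was not called by limma, nor at an unadjusted p under 0.05, and had too few reads for the filters of edgeR and DESeq2. Of the remaining hydroxylases, Cyp26a1 and Cyp26c1 had no reads. These 2 genes and Scarb1 are named after their values were seen.

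Cyp26b1 (chr6:84571414-84593908, minus strand), which encodes a hydroxylase that inactivates retinoic acid, was at 74.2, 69.3, 46.8 and 61.1 in control samples and at 11.2, 16.4, 19.5 and 14.8 in p16 samples. Its groups were far apart, and the log2 change was −1.96 (SE 0.22, adjusted p = 0.000158). Adh1 (chr3:138260991-138290698, plus strand), an alcohol dehydrogenase that oxidizes retinol, was at 103.9, 134.8, 95.2 and 68.8 in control samples and at 8.8, 29.7, 10.6 and 20.6 in p16 samples. The highest p16 sample, at 29.7, was below the lowest control, at 68.8, and the log2 change was −2.58 (SE 0.32, adjusted p = 0.000364). It has an antisense neighbour, Gm16559.

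Aldh1a2 (chr9:71215789-71296243, plus strand), which makes retinoic acid from retinal, was at 3.7, 3.9, 20 and 7.6 in control samples and at 1.6, 0.8, 1.8 and 0.8 in p16 samples. Control replicate 3 alone held most of the signal, and the call (log2 change −1.87, adjusted p = 0.0492) was lost without it (−1.40, adjusted p = 0.151). Of the 8 fits with 1 sample left out, only that without control replicate 2 kept the call (0.0444). Over 15 settings it was called in 5, with adjusted p of 0.016 to 0.200 and log2 changes of −2.86 to −1.40. Awat2 (chrX:100402221-100442717, minus strand), an acyltransferase of sebaceous glands that can also esterify retinol, was at 5.9 to 10.7 in control and 0.8 to 3.9 in p16 samples (log2 change −1.87, adjusted p = 0.0201). It was called in 9 of 15 settings, with adjusted p of 0.00808 to 0.144, and the call was lost without control replicate 3 (0.0653) or 4 (0.0589), p16 replicate 3 (0.0563) or the library labelled p16 replicate 1 (0.0682), without replicate 3 of both groups (0.144) and with DESeq2 (0.0548).

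Of 20 genes known to respond to retinoic acid, 13 were tested, 1 was higher and 5 were lower, with a median log2 change of −0.23. Crabp2, Lrat and Cyp26b1 are among them. Tgm2 (chr2:158116402-158146436, minus strand), a transglutaminase gene, was at 14.8, 23.1, 18.4 and 47.4 in control samples and at 3.2, 3.1, 3.5 and 0 in p16 samples. The p16 samples were near the limit of detection, and the log2 change was −3.04 (SE 0.49, adjusted p = 0.00293). Its opposite-strand neighbour Rprd1b was at 30.8 to 45.3 in control and 45.3 to 54.3 in p16 samples. Rarres1 (chr3:67478972-67515523, minus strand), named for its response to retinoids, was at 48.9 to 64.5 in control and 14.4 to 40.8 in p16 samples (log2 change −1.25, adjusted p = 0.022). That call was lost without control replicate 1 (0.0806), control replicate 3 (0.0615) or the library labelled p16 replicate 1 (0.0738), in a range of 0.00442 to 0.0806. Krt4 (chr15:101918535-101924735, minus strand), a keratin of internal epithelia, went the other way, at 6.1 to 11.1 in control and 16.8 to 37.5 in p16 samples (log2 change 1.55, adjusted p = 0.0102).

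**Figure D2:**
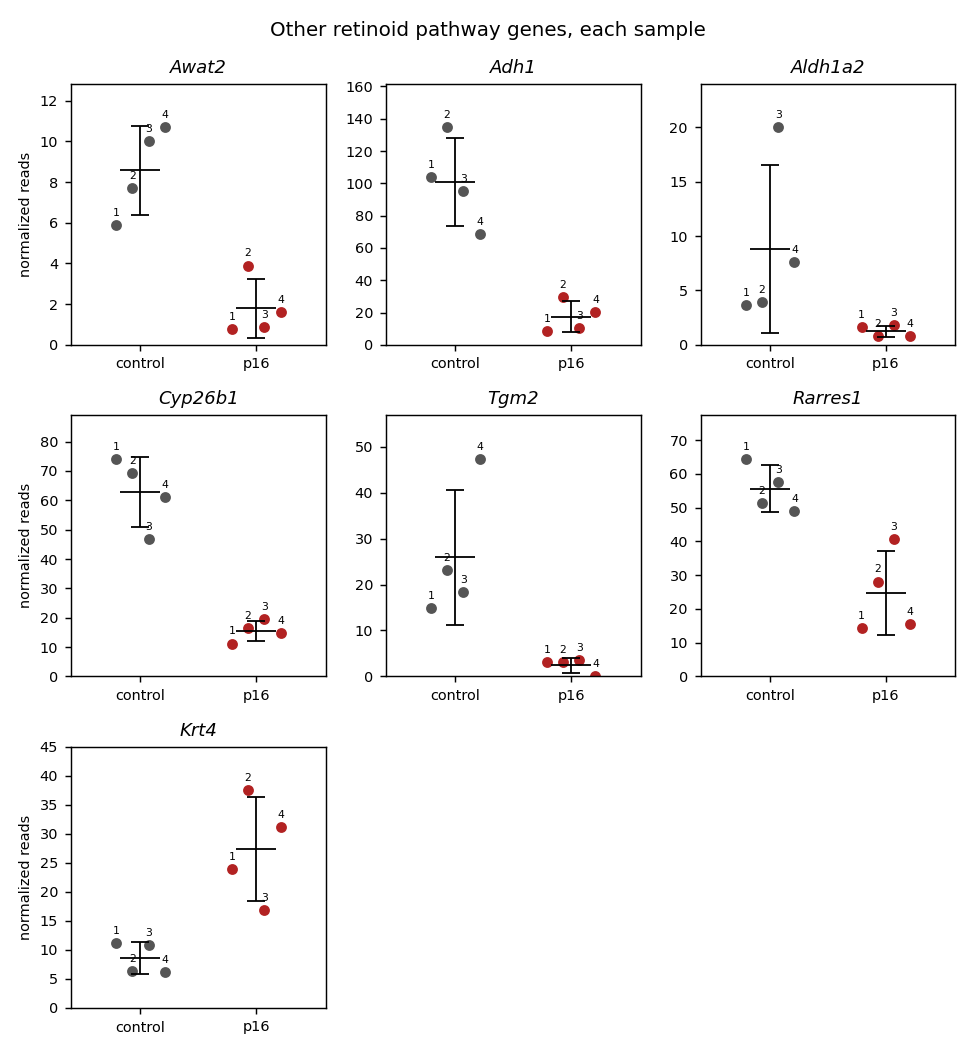
Normalized reads (vertical axes, linear) of other retinoid pathway genes called by limma in control (grey) and p16 (red) samples, with replicate numbers beside the points and bars for the mean ± SD of 4 samples. The groups are separate for each of these genes, with p16 samples higher for Krt4 and lower for the rest.

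Most markers of the hair-follicle bulge were lower: 6 of 9 were called lower and 0 higher by limma, and DESeq2 gave the same counts. Of all genes tested, limma called 2.61% lower and 1.24% higher, and 15.9% had an unadjusted p under 0.05. These shares stand beside every marker list below. With no adjustment, p was under 0.05 for 7 markers with lower and 1 with higher values. That 1 marker, Postn, named after its values were seen, had means of 287 ± 90.9 in control and 501 ± 207 in p16 samples (SD, n = 4 each). The summed value of the list was 3715.9, 2905.4, 3329.0 and 3483.5 in control samples and 2127.7, 2457.8, 2550.2 and 1415.8 in p16 samples. The most abundant was Sox9, and the defining marker Cd34 was at 121.9 to 238.9 in control and 8.0 to 16.4 in p16 samples. Of 7 tested sebaceous gland markers, Awat2 included, limma called 4 lower (5 with no adjustment) and DESeq2 3, and the sum was 1402.0, 1142.2, 1427.3 and 1506.5 in control samples and 500.5, 715.2, 579.9 and 592.8 in p16 samples. Scd1 was the most abundant, and the defining marker Mc5r was at 0 in all p16 samples and at 1.5 to 3.9 in controls. Mc5r rested on 9 reads in control libraries, was tested through its control samples alone and was not called (limma adjusted p = 0.0733). The part of these cells in the lower values of Crabp1, Crabp2, Lrat, Adh1, Cyp26b1 and Awat2 was not tested.

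Of 6 tested melanocyte markers limma called 2 lower and DESeq2 3; edgeR called 1 of the 4 that passed its filter on low counts and 4 of 7 without it. With no adjustment, limma's p was under 0.05 for 5 of the 6, all with lower values. Melanocyte markers had a sum of 522.3, 220.9, 133.5 and 256.6 in control samples and 72.0, 142.9, 73.7 and 48.4 in p16 samples, and Dct as the most abundant. Fibroblast markers, 5 of which were tested and 1 called higher, summed to 27.3, 19.4, 10.8 and 26.0 in control samples and to 96.0, 97.6, 220.7 and 42.8 in p16 samples. Dcn, the gene called higher, made up 81.0% of that sum. Col1a2, named after its values were seen, had separate groups with lower p16 values, at 17.8, 10.3, 4.2 and 9.2 in control samples and 1.6, 3.1, 2.7 and 3.3 in p16 samples, and was not called by limma (adjusted p = 0.0571). Without a filter on low counts, edgeR called it lower. Col1a1, also named after its values were seen, was at 2.2, 2.6, 0.8 and 1.5 in control samples and 6.4, 2.3, 11.5 and 2.5 in p16 samples and was not called (limma adjusted p = 0.285). With no adjustment, 2 fibroblast markers had p under 0.05 with higher values (Dcn and Col1a1) and 1 with lower values (Col1a2). Lum was at 0 in every sample, and the defining marker Pdgfra was at 0 to 3.5 in all samples. Crabp1 is itself a dermal papilla marker and was the 1 gene called among 4 tested of that list of 7. The list summed to 265.5, 368.3, 227.2 and 267.4 in control samples and to 280.7, 241.3, 259.0 and 318.2 in p16 samples, with 83.6% of it from Bmp4, and the defining marker Corin and also Alpl were at 0 in every sample. Vcan, named after its values were seen, was at 0 to 1.7 in control and 1.6 to 12.4 in p16 samples and was not called (log2 difference 1.52, unadjusted p = 0.0163, limma adjusted p = 0.179). The part of melanocytes and fibroblasts in these results was not tested.

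Summed values of the other marker lists overlapped between groups. Gata3 made up 98.1% of the inner root sheath and hair shaft sum, Thy1 98.9% of the T cell sum and Epcam 85.7% of the Langerhans and myeloid sum. Those sums therefore say little about the other markers of their lists. Of 7 basal epidermal markers, led in abundance by Krt5, limma called 0 higher and 1 lower, as did DESeq2. At an unadjusted p under 0.05, limma gave 2 basal markers higher and 1 lower. Of 9 differentiated epidermal markers, led by Krt10, limma called 1 higher and 2 lower. With no adjustment limma gave 2 of these higher and 2 lower, the same counts as DESeq2 and as edgeR without its filter on low counts. Of 6 upper follicle markers, led by Krt17, 3 were lower, as was 1 of 7 tested markers of the inner root sheath and hair shaft, led by Gata3. That 1 marker, Krt35, named after its values were seen, had 14 reads in control and 0 in p16 libraries. It was tested through its control samples alone. No tested marker of T cells (4, led by Thy1), of Langerhans and myeloid cells (6, led by Epcam) or of endothelial cells (2, led by Egfl7) was called by limma at an adjusted p under 0.05. At an unadjusted p under 0.05, 1 T cell marker was higher (Thy1) and 1 lower (Cd3d, named after its values were seen), 1 Langerhans or myeloid marker was higher (Cd207) and 1 lower (Epcam), and 1 endothelial marker was lower (Egfl7). DESeq2 called 0 of the 3 T cell, 6 Langerhans or myeloid and 2 endothelial markers for which it gave an adjusted p. With its filter on low counts edgeR tested 1 T cell, 4 Langerhans or myeloid and 0 endothelial markers and called 0 of them, and without the filter it called 1 (Thy1, higher). The defining markers Cd3e and Pecam1 were at no more than 6.4 in any sample. Cd207, the defining marker of Langerhans cells, was at 0.7, 0, 0.8 and 0 in control samples and 2.4, 4.7, 1.8 and 3.3 in p16 samples, on 2 and 15 reads. It was tested through its p16 samples alone, its groups did not overlap, and it was not called (limma adjusted p = 0.0922).

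The genes most like each called gene over the 8 samples, by Pearson correlation of log2(value + 1) among genes with a mean of at least 20, are given as a description, since all of them share the split between groups. For Crabp1 these were Atg14 (r = 0.979), Cyp1b1 (0.965) and Tmcc3 (0.965). Sprr1a (0.979), Rtn4rl1 (0.977) and Slc43a2 (0.975) were closest to Crabp2, and Tpm1 (0.981), Ppif (0.979) and again Sprr1a (0.976) to Lrat. Sprr1a, which encodes a cornified envelope protein, was highest in control replicate 3, at 1297.1, as was Crabp2. For Rara the closest were Znrf3 (0.988), Zfp395 (0.986) and Ski (0.972). Among these most correlated genes, Atg14 (log2 change −0.30, limma adjusted p = 0.196), Rtn4rl1 (0.0801) and Ski (0.269) were not called.

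Promoters of 7 of the 9 genes, 15 in all, were found in the RefSeq table of GRCm38.p6; Crabp2 and Rdh10 were not in it. Retinoic acid receptors bind direct repeats of a hexamer, searched here on both strands as the sequence AGGTCA, the sequence AGTTCA, the sequence GGGTCA and the sequence GGTTCA. The window searched ran from 250 bases before each start to 50 bases after it. A hexamer alone was in 6 of the 15 promoters and in 43.7% of all 32851 promoters. Within this window no promoter of these genes held a direct repeat spaced by 1, 2 or 5 bases, which 0.222%, 0.268% and 0.0974% of all promoters held. Upstream sequence of 250 bases is shown for the called genes in the table, as the members that moved with p16, with hexamers in capitals. For Rara, which has 4 promoters there, the one with the most hexamers (4) is given, chr11:98939461-98939710 on the plus strand. Those of Crabp1 (chr9:54764498-54764747, plus strand) and Lrat (chr3:82903975-82904224, minus strand) hold none.
Rara: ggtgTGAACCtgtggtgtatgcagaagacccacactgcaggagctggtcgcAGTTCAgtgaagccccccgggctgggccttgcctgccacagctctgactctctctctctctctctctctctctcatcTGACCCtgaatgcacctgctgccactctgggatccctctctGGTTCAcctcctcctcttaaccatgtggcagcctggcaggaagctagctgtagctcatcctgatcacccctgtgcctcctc
Crabp1: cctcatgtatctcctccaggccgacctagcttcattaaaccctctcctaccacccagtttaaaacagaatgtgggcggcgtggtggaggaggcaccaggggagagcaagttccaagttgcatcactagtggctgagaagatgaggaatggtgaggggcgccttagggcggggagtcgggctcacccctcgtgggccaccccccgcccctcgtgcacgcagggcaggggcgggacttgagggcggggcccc
Lrat: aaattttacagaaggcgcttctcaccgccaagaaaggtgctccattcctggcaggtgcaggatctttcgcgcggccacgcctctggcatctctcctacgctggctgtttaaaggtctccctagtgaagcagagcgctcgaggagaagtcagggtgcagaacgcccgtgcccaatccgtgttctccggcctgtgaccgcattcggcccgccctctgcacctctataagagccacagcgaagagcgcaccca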

How the data were processed

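GFP+ keratinocytes of 4 control and 4 p16 samples were profiled by 3′ mRNA-seq. The authors made libraries with an adapted CEL-Seq2 protocol, used TopHat2 to align reads to GRCm38, and ran DESeq2; the submitters' processing notes also name HTSeq. In the labels, replicate 3 of both groups has another wording of the library protocol. The deposited signal values are read counts divided by a size factor per sample, rounded to 1 decimal. Whole reads were recovered for 100% of values, within 0.1. The authors' own test columns were not used.

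Groups were compared with limma 3.58.1 in R 4.3.3 (eBayes with trend) on log2(value + 1) for 12782 genes with a mean of at least 1, two-sided, with Benjamini-Hochberg adjustment and no replicate term; called means adjusted p under 0.05. Fold changes on this scale understate those of low genes. Alternatives were another pseudocount, filters, scaling, a replicate block, left-out samples, edgeR 4.0.16 and DESeq2 1.42.0 on recovered reads. Members and gene lists (retinoid pathway, cell type markers) were chosen with earlier results of these data known. Named were the 9 members, other pathway genes called or with separate groups (some are not reported here), the 3 genes most correlated with each called member, and, of each marker list, the top gene and a defining marker at 0; other defining markers were named after their values were seen. Coordinates are from GENCODE M21.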

Additional observations from a re-analysis of the deposited data

Results flagged for a closer look

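Of 84 groups of 4 samples examined, 3 had 1 sample set apart from the others by most of the group's range, where chance alone sets apart about 1 in 20. Lrat was at 0.8 normalized reads in p16 replicate 2, on 1 read, and at 0 in the other p16 samples. Tgm2 was at 0 in p16 replicate 4 and at 3.1 to 3.5 in the other p16 samples. The summed value of outer root sheath and upper follicle markers was 14619.3 in p16 replicate 3 and 11801.9 to 12272.0 in the other p16 samples.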

How the results depend on the processing

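Crabp1 was called in all 16 settings in which it was tested, with adjusted p of 0.000998 to 0.0222. The 9 members gave 0 to 1 genes called higher and 2 to 3 lower when each sample was left out in turn, and the pathway list gave 1 to 3 higher and 5 to 9 lower, while all genes gave 69 to 196 higher and 177 to 343 lower. Leaving out replicate 3 of both groups gave 66 higher and 157 lower among all genes, 0 and 1 among the members, and 1 and 5 in the pathway list. A minimum mean of 10 left 1 member and 5 pathway genes lower, since Crabp1, Lrat, Awat2 and Aldh1a2 were no longer tested. An unadjusted p under 0.05 gave 897 higher and 1141 lower among all genes, and 4 and 14 in the pathway list. The cause of the other changes was not tested. Count tests on recovered reads called 160 higher and 299 lower (edgeR) and 188 and 355 (DESeq2).

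Rarg changed sign without control replicate 3 (−0.0169), without p16 replicate 4 (−0.0248) and without replicate 3 of both groups (−0.0044), within a range of −0.0248 to 0.1081 over left-out samples; the cause was not tested. Of the named genes' other values, 59 lost the call, 1 gained it and 386 kept their side of the threshold.

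No pairing was used, as planned, because the study describes no replicate block, although shared experiments may link samples. Deviations of same-numbered samples were weakly correlated (0.055, 0.004, 0.046 and 0.083), and not every sample correlated best with its own number. With a replicate block 216 genes were called higher and 392 lower, with 1 and 3 among the members.

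Genes at a few reads per library, such as Lrat, Dhrs9 and Aldh1a2, are limited by depth: 3 reads were worth 2.23 to 4.58 normalized reads. The exact intervals of Lrat and Dhrs9 cover counting error only, and whether duplicate reads were collapsed is not given in the sources used here. Without the library labelled p16 replicate 1, 69 genes were higher and 192 lower.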
